A study of Arabidopsis thaliana with 17 samples.

Results

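The transcripts of 4 transcription factor genes of the drought and abscisic acid (ABA) response were followed in shoots and roots of Arabidopsis thaliana: ABF1 (AT1G49720), DREB2A (AT5G05410), HB-12 (AT3G61890) and AT5G61590, an AP2-domain gene that RefSeq also lists as DEWAX. Each was measured by 1 probe set, so the genes account for 4 of the 18107 named probe sets among 28583 on the array. Below, a gene is called measured where it had a named probe set of its own. The probe sets without a name may cover other genes. AT5G61590 was named by the platform's annotation. ABF1, DREB2A and HB-12 were named by the study's lists of genes that differed between an NBR1 overexpression line and WT. The genes were chosen on their log2 differences from WT in the KO lines, so those differences are given below as a description and carry no test.

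The lines were KO1 and KO3, which carry deletions in NBR1 made with CRISPR/Cas9 and have had the transgenic inserts crossed out, and the Col-0 wild type (WT). Each KO line is 1 homozygous deletion line, and both were set against the same WT arrays. Plants were about 4 weeks old and had been kept in hydroponic boxes of 16 plants, with no stress or hormone treatment, under days of 8 h at 22 °C and nights of 16 h at 18 °C. RNA was drawn from at least 3 plants per sample, and each of the 6 groups of line and organ had 3 arrays except WT roots, for which replicates 1 and 3 were analysed here. The labels call the samples biological replicates without saying which shared a box, so the p-values measure only the spread between these samples.

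ABF1, DREB2A, HB-12 and AT5G61590 stand at different places in the response to water deficit. ABF1 is a bZIP factor that binds the ABA-responsive element of promoters and is switched on by the SnRK2 kinases of the ABA pathway, whereas DREB2A is an AP2/ERF factor that binds the dehydration-responsive element and whose protein is kept scarce by ubiquitin-dependent degradation in unstressed plants. HB-12 is a homeodomain-leucine zipper factor of class I, induced by ABA and water deficit, that takes part in feedback on ABA signalling and in growth under drought. DEWAX is known as a repressor of genes for cuticular wax synthesis, and its transcript is known to rise in darkness. NBR1 encodes a receptor that delivers cargo to selective autophagy.

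Signals are RMA log2 values, on which a difference of 1 is a change of 2-fold. The arrays of an organ had nearly the same median, 1.72 to 1.85 in shoots and 2.61 to 2.67 in roots, while the organs differed, so deposited levels cannot be set against each other across organs without rescaling. KO1 shoots replicate 1 stood apart, its values spreading less over the probe sets (SD 1.41) than those of the other shoot arrays (SD 1.94 to 2.07), and WT roots replicate 1 had the lowest mean correlation with its organ, 0.978 against 0.983 to 0.987. NBR1 stood at 1.52 to 1.81 in KO shoots and at 5.73 to 6.44 in WT shoots, and at 3.26 to 4.59 in KO roots and at 7.23 to 7.41 in WT roots. Of the markers listed for green tissue, 4 of 17 were measured, and 3 of these (LHCB4.1, LHCB4.2 and RCA) lay at 6.20 to 11.26 in shoots and at 1.13 to 4.66 in roots, while LHCB4.3 did not exceed 1.65 in either. Of 17 root markers 2 were measured. EXPA7 had a median signal of 1.36 in shoots and 5.63 in roots, and PLT2 one of 1.44 in shoots and 2.365 in roots. After quantile normalisation of all 17 arrays, shoots minus roots was -3.45 for EXPA7 (adjusted p = 2.17e-12 from limma). For PLT2 it was -0.32 and did not pass (adjusted p = 0.151 from limma), so EXPA7 alone separated the organs on that scale.

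In shoots, HB-12 was the gene with the lower signal in the KO lines. Its log2 signal was 2.17, 3.25 and 2.61 in KO1 shoots and 2.75, 3.38 and 3.15 in KO3 shoots, against 4.47, 4.31 and 3.91 in WT shoots. Every KO array therefore lay below every WT array. The log2 difference was -1.55 in KO1 (standard error 0.29) and -1.14 in KO3 (standard error 0.29), or 2.93-fold and 2.20-fold lower than WT. The lowest of these arrays was KO1 replicate 1, the array that stood apart, and without it the difference in KO1 was -1.30. The log2 of the summed signal of the 4 measured green tissue markers was 10.35 on that array, against 11.38 and 11.54 on the other KO1 shoot arrays, 11.53 to 11.63 in KO3 shoots and 11.57 to 11.65 in WT shoots. RCA was below WT on every KO1 shoot array (log2 difference -0.53), as were 12.2% of named probe sets. It was also below WT on every KO3 shoot array (-0.09), as were 6.32%. LHCB4.1, LHCB4.2 and LHCB4.3 overlapped WT in KO1 shoots, at -0.52, -0.64 and 0.04. In KO3 shoots LHCB4.1 was above WT on every array (0.27), as were 6.06% of named probe sets. The part of these markers in the shoot differences was not tested. In bulk tissue of this kind, fewer cells that carry a transcript and less of it per cell cannot be told apart.

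AT5G61590 differed in the other direction in the same organ. Its log2 signal was 2.99, 3.85 and 3.12 in KO1 shoots and 3.18, 3.25 and 3.16 in KO3 shoots, against 1.78, 2.24 and 2.50 in WT shoots. All 6 KO arrays were above all 3 WT arrays, and the KO3 arrays lay close together (SD 0.05, n = 3). The log2 difference was 1.15 in KO1 and 1.02 in KO3 (standard error 0.25 each), or 2.21-fold and 2.03-fold higher than WT. The difference in KO1 was between 0.88 and 1.31 when each shoot array was left out in turn, and that in KO3 between 0.83 and 1.19. It was 1.31 in KO1 without KO1 replicate 1, the array with the low green tissue sum.

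**Figure D1:**
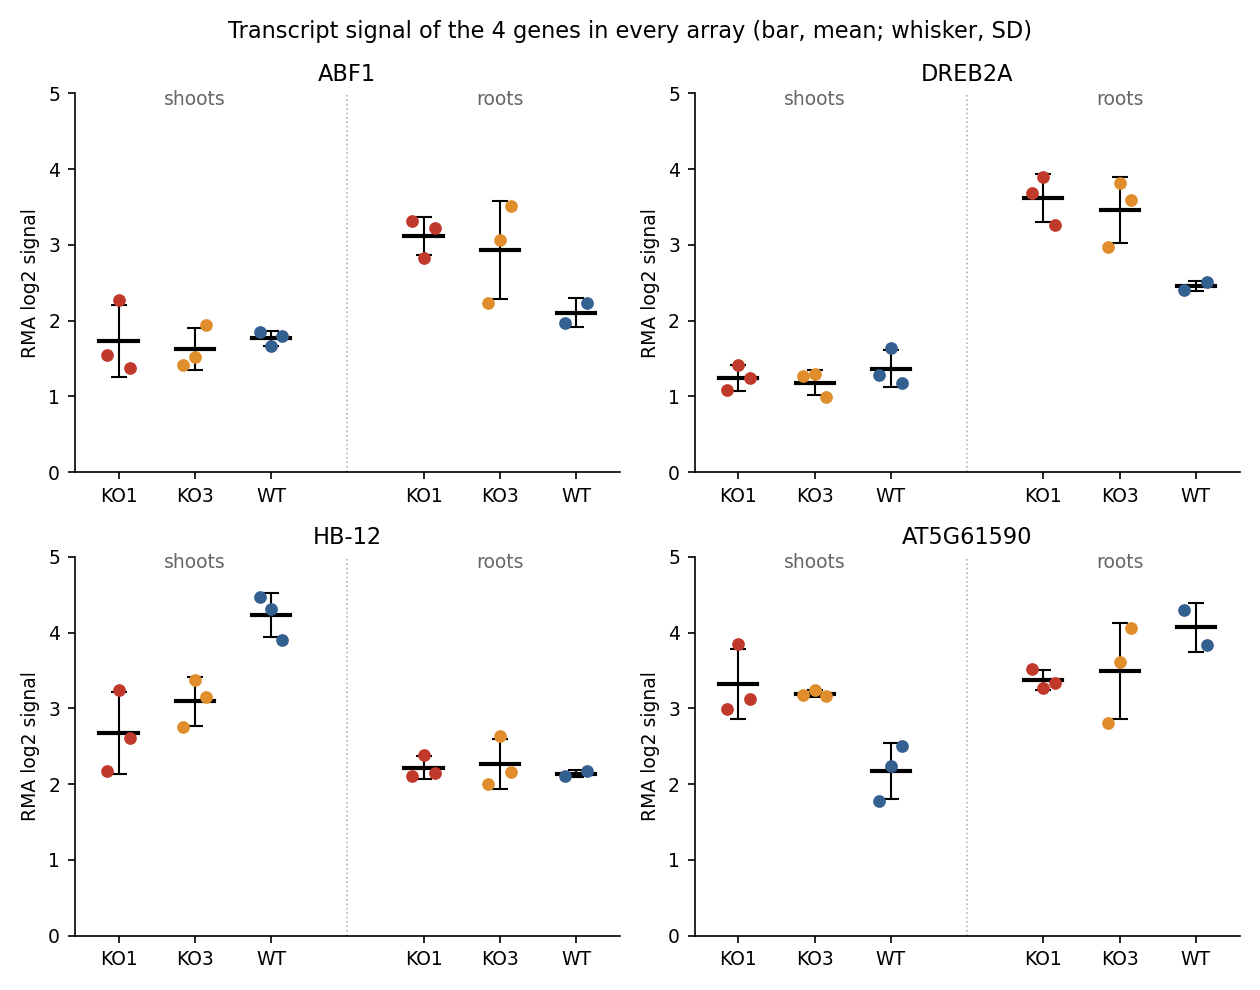
RMA log2 signal (vertical axis) of ABF1, DREB2A, HB-12 and AT5G61590 in KO1, KO3 and WT, with shoots left and roots right of the dotted line; points are arrays, bars are means and whiskers are SDs (n = 3, WT roots n = 2). In shoots the KO points of HB-12 lie below those of WT and the KO points of AT5G61590 above them, whereas in roots the KO points of DREB2A lie above those of WT.

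ABF1 and DREB2A overlapped between the lines in shoots. ABF1 had log2 signals of 1.55, 2.27 and 1.38 in KO1 shoots and 1.42, 1.52 and 1.94 in KO3 shoots, against 1.85, 1.66 and 1.80 in WT shoots. The WT values fell inside the range of both KO lines, and the log2 differences were -0.04 in KO1 and -0.14 in KO3 (standard error 0.24 each). DREB2A had log2 signals of 1.08, 1.42 and 1.24 in KO1 shoots and 1.27, 1.29 and 0.99 in KO3 shoots, against 1.28, 1.64 and 1.18 in WT shoots. All 9 values of DREB2A were below the median of their own array, and the log2 differences were -0.12 in KO1 and -0.18 in KO3 (standard error 0.17 each). At signals this low an array leaves little room for a difference downwards, and no detection calls were used here.

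In roots, by contrast, DREB2A was the gene whose KO and WT arrays separated in both lines. Its log2 signal was 3.69, 3.90 and 3.27 in the roots of KO1 and 2.97, 3.82 and 3.59 in those of KO3, against 2.41 and 2.51 in WT roots. Every KO array was higher than both WT arrays. The log2 difference was 1.16 in KO1 and 1.00 in KO3 (standard error 0.25 each), or 2.23-fold and 2.00-fold higher than WT. With each root array left out in turn, the difference ran between 1.02 and 1.33 in KO1 and between 0.82 and 1.25 in KO3.

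ABF1 also had higher means in the roots of both KO lines, with more spread. Its log2 signal was 3.31, 2.83 and 3.22 in the roots of KO1 and 2.24, 3.06 and 3.51 in those of KO3, against 1.97 and 2.24 in WT roots. The KO1 arrays were all above WT, whereas the lowest KO3 array equalled the higher WT array. The log2 difference was 1.02 in KO1 and 0.83 in KO3 (standard error 0.30 each), or 2.02-fold and 1.78-fold higher than WT. In KO3 it depended on single arrays, with 1.18 without KO3 replicate 1 and 0.55 without KO3 replicate 3.

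HB-12, the gene that was lower in KO shoots, showed no separation in roots. Its log2 signal was 2.11, 2.39 and 2.15 in the roots of KO1 and 2.00, 2.64 and 2.16 in those of KO3, against 2.11 and 2.17 in WT roots. All but 1 of these 8 values were below the median of their array, and the log2 differences were 0.08 in KO1 and 0.13 in KO3 (standard error 0.19 each).

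AT5G61590 had its highest root signals in WT. Its log2 signal was 3.52, 3.27 and 3.34 in the roots of KO1 and 2.81, 3.62 and 4.06 in those of KO3, against 4.30 and 3.84 in WT roots. The KO1 arrays were all below WT, and 1 KO3 array lay between the WT arrays. The log2 difference was -0.69 in KO1 and -0.57 in KO3 (standard error 0.30 each), or 1.62-fold and 1.49-fold lower than WT. Without WT replicate 1, the root array with the lowest correlation, the differences were -0.46 and -0.34, and without KO3 replicate 1 that of KO3 was -0.23. The log2 of the summed signal of the 4 green tissue markers was 4.21 to 4.39 in the roots of KO1 and 4.28 to 5.41 in those of KO3, against 4.63 to 4.71 in WT roots, and it was highest in KO3 replicate 3, which also had the highest KO signals of AT5G61590 and ABF1. That of the 2 root markers was 5.50 to 6.04 in the roots of KO1 and 5.18 to 5.91 in those of KO3, against 5.76 to 5.88 in WT roots. The part of these markers in the root differences was not tested.

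**Figure D2:**
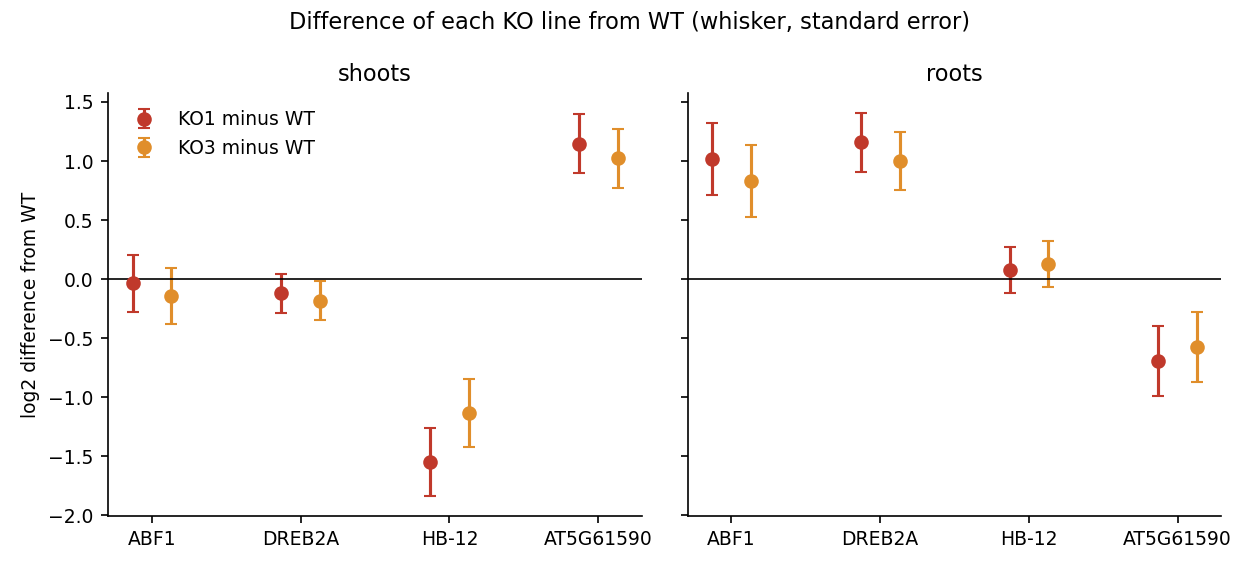
Log2 difference from WT (vertical axis) of each gene in KO1 and KO3, in shoots (left) and roots (right), with standard errors as whiskers. In shoots HB-12 stands at -1.55 and -1.14 and AT5G61590 at 1.15 and 1.02, and in roots DREB2A stands at 1.16 and 1.00 and ABF1 at 1.02 and 0.83.

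Ordered by mean within an organ, the line that separated from its neighbour was WT in each case where arrays did not overlap. In shoots HB-12 followed the order WT, KO3, KO1, with no overlap between WT and KO3, and AT5G61590 the order KO1, KO3, WT, with no overlap between KO3 and WT. In roots DREB2A followed the order KO1, KO3, WT, with no overlap between KO3 and WT. All other neighbours in the orders of the 4 genes had overlapping or tied arrays, which covers every pair of KO1 with KO3. The genes were chosen on their differences from WT, so it was in part fixed beforehand that WT would be the line to separate. Nothing is read from these orders, and the shares of named probe sets without overlap are given below.

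Counted by the fit across all named probe sets (limma with Benjamini-Hochberg adjustment and a threshold of 0.05), 0 of the 4 genes were called in each comparison of a KO line with WT. Over all named probe sets 0.309% were called in KO1 shoots, 0.144% in KO3 shoots, 0.127% in KO1 roots and 0.215% in KO3 roots. At an unadjusted p under 0.05 the numbers were 2 of 4 in KO1 shoots and 2 of 4 in KO3 shoots (HB-12 and AT5G61590 in both), 3 of 4 in KO1 roots (ABF1, DREB2A and AT5G61590) and 2 of 4 in KO3 roots (ABF1 and DREB2A). The background at that level was 9.95% in KO1 shoots, 5.03% in KO3 shoots, 8.38% in KO1 roots and 11.2% in KO3 roots. In KO1 shoots the count of calls was sensitive to single arrays, being 2 without KO1 replicate 1 and 1 without KO1 replicate 2. The genes were chosen on these same contrasts, so their counts at either level were in part fixed beforehand. They are no test against the background, and nothing is read from them.

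The count of genes whose arrays did not overlap has the following background. Every KO array was higher than WT for 3.60% of named probe sets in KO1 shoots and 6.06% in KO3 shoots, which held 1 of the 4 genes in each line (AT5G61590), and every KO array was lower for 12.2% and 6.32%, which held 1 of 4 in each (HB-12). In roots every KO array was higher for 11.4% of named probe sets in KO1 and 12.4% in KO3, which held 2 of 4 (ABF1 and DREB2A) and 1 of 4 (DREB2A). Every array was lower for 11.5% in KO1 roots, which held 1 of 4 (AT5G61590), and for 11.8% in KO3 roots, which held 0 of 4. Since these contrasts had a part in the choice of the genes, nothing is read from the counts.

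The comparison of the KO lines with each other was not itself used in that choice, and it was tested for the 4 genes in both organs, 8 comparisons in all. None was called by limma, 0 of 8, and 0 of 8 had an unadjusted p under 0.05. Of all named probe sets 0% were called in either organ, and 6.69% in shoots and 3.29% in roots had an unadjusted p under 0.05. This comparison is the gap between the differences of KO1 and KO3 from WT, which had a part in choosing the genes. A small gap is therefore no independent sign that the lines agree.

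In shoots KO1 minus KO3 was -0.42 for HB-12 (95% interval -1.07 to 0.24, adjusted p = 0.667 from limma). It ranged over -0.70 to -0.16 with single arrays left out and was -0.16 without KO1 replicate 1, the array that stood apart. Same-numbered KO1 and KO3 shoot arrays deviated together, and with the replicate number as a block in these 2 lines alone the interval for HB-12 was -0.84 to 0.01 (adjusted p = 0.591 from limma), with all 3 pairs below 0 and 0 of the 4 genes called. Without the block, the gap of AT5G61590 was 0.12 (-0.45 to 0.69, adjusted p = 0.906), that of ABF1 0.11 (-0.44 to 0.65, adjusted p = 0.916) and that of DREB2A 0.06 (-0.32 to 0.44, adjusted p = 0.934). In roots the gaps were 0.18 for ABF1 (-0.42 to 0.78), 0.16 for DREB2A (-0.33 to 0.65), -0.12 for AT5G61590 (-0.71 to 0.47) and -0.05 for HB-12 (-0.43 to 0.33), each with an adjusted p of 0.997 from limma.

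The organs were then compared within the same genes, shoots against roots as a mean over the lines, after the 17 arrays had been quantile-normalised together because the deposited values of the organs have different medians. Of the 4 genes 3 were called, where 58.2% of all named probe sets were, 2 of them higher in shoots and 1 lower, where 26.2% and 32.0% were. The count was 4 with the values as deposited, 2 with array medians subtracted, 2 with WT alone and 2 or 3 with each array left out, since AT5G61590 lost its call without KO1 shoots replicate 2, KO3 roots replicate 1, WT shoots replicate 2, WT shoots replicate 3 or WT roots replicate 3, while ABF1 gained one without KO1 shoots replicate 2. HB-12 was higher in shoots, with shoots minus roots at 1.95 (standard error 0.12, adjusted p = 2.72e-10 from limma), and DREB2A was lower in shoots, at -1.27 (standard error 0.13, adjusted p = 1.45e-07). Both kept their sign under every scaling and in each line taken alone. HB-12 stood at 1.44 in KO1, 1.65 in KO3 and 2.76 in WT. DREB2A stood at -1.67 in KO1 and -1.58 in KO3, and missed the threshold only with WT alone, at -0.56 (adjusted p = 0.070 from limma). The KO arrays carry the differences from WT that had a part in choosing the genes. The means over the lines and their p-values therefore restate that choice in part.

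Ranks within the array are given for these genes too. Quantile normalisation sets each value by its rank, so the ranks restate the result above and are no second check. HB-12 lay at the 63.3rd to 72.9th percentile in KO1 shoots and the 67.1st to 72.8th in KO3 shoots, against the 78.1st to 83.5th in WT shoots, and at the 40.4th to 50.1st percentile over all root arrays. DREB2A lay at the 13.2nd to 36.2nd percentile in KO1 shoots and the 10.0th to 30.7th in KO3 shoots, against the 24.1st to 44.0th in WT shoots, and in roots at the 57.7th to 65.5th in KO1 and the 54.2nd to 64.4th in KO3, against the 46.7th to 48.8th in WT. In each line, shoots and roots did not overlap for either gene.

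AT5G61590 and ABF1 had no organ direction that held throughout. Shoots minus roots of AT5G61590 was 0.43 (standard error 0.16, adjusted p = 0.026 from limma) over the quantile-normalised arrays, 0.08 with array medians subtracted and -0.75 with the values as deposited. Each line taken alone on the same scale gave 1.33 for KO1 and 0.81 for KO3, against -0.84 for WT, and limma's adjusted p was 4.64e-04 for KO1 and 0.019 for KO3, against 0.031 for WT. The ranks fix the quantile-normalised values, so they restate this split. Shoots lay above roots in KO1 (71.7th to 79.0th against 57.6th to 61.2nd percentile) and in KO3 (70.8th to 72.3rd against 52.2nd to 67.1st). In WT shoots lay below roots (48.6th to 62.6th against 65.1st to 72.6th). This exchange restates the differences from WT that had a part in choosing the gene, and the gap between the lines was not tested.

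ABF1 missed the threshold between organs, with shoots minus roots at -0.25 (standard error 0.19, adjusted p = 0.268 from limma, 95% interval -0.64 to 0.14). It was -0.52 in KO1 and -0.55 in KO3, against 0.32 in WT, and its ranks in shoots and roots overlapped in each line. With the values as deposited it was -1.01 and passed (adjusted p = 6.48e-05 from limma), a scale on which the root arrays have the higher medians, and it passed as well without KO1 shoots replicate 2, at -0.39.

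**Figure D3:**
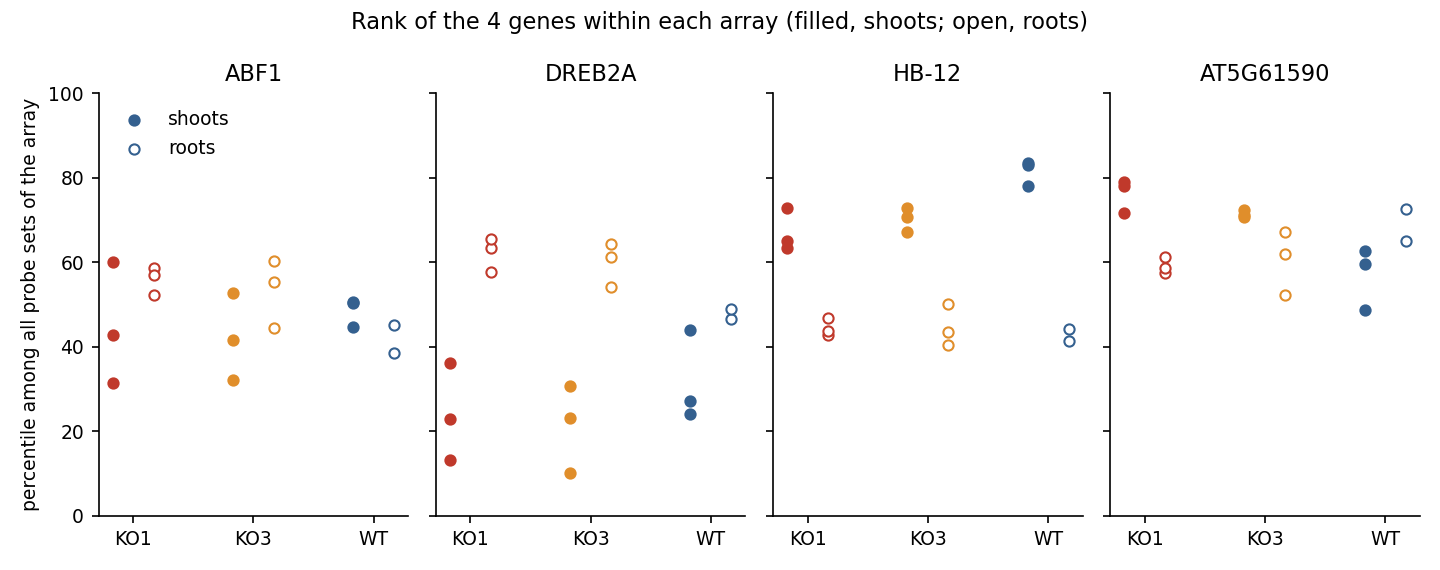
Percentile of each gene among all probe sets of its array (vertical axis) in KO1, KO3 and WT, with filled points for shoots and open points for roots. DREB2A lies lower and HB-12 higher in shoots in every line, and AT5G61590 lies higher in shoots in KO1 and KO3 but lower in shoots in WT.

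**Figure D4:**
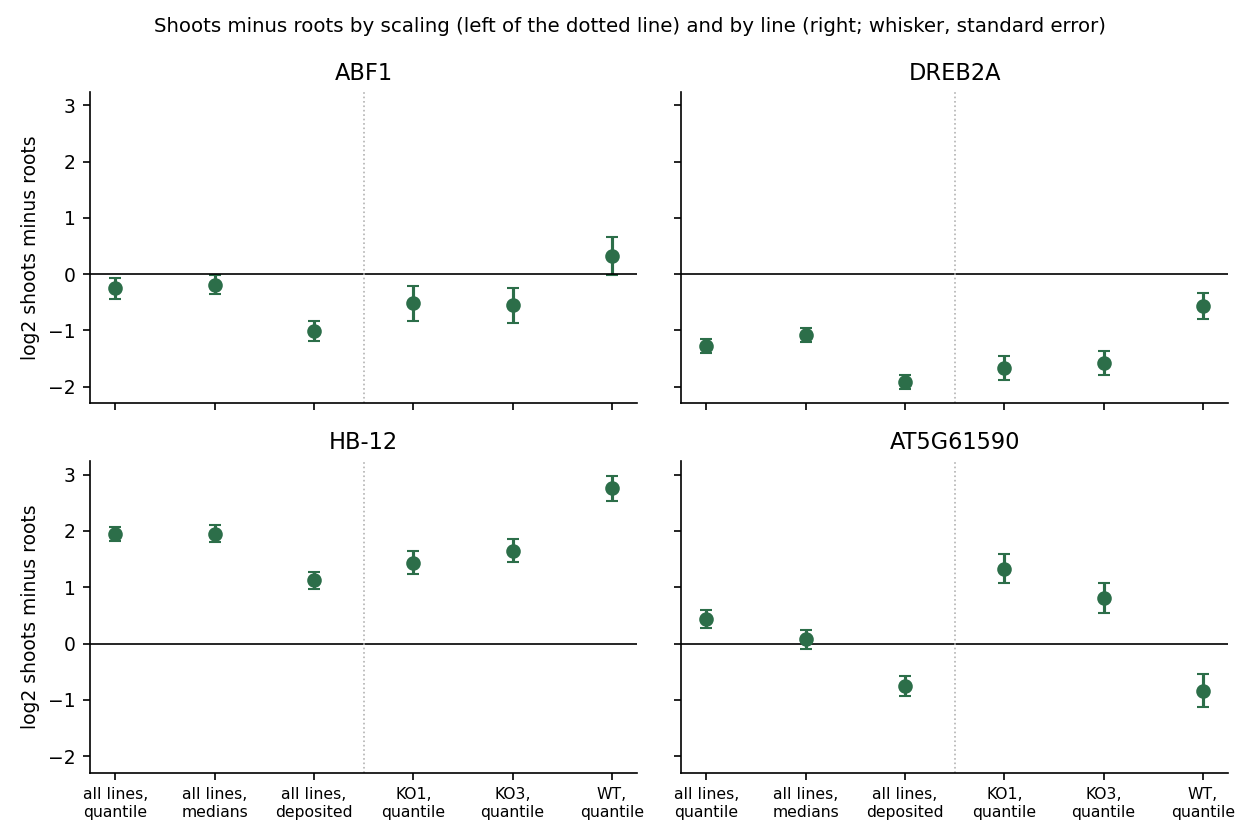
Log2 shoots minus roots (vertical axis) of each gene, with standard errors as whiskers, for the mean of the lines under quantile normalisation, subtraction of array medians and the values as deposited (left of the dotted line), and for KO1, KO3 and WT alone under quantile normalisation (right). HB-12 stays above 0 and DREB2A below 0 throughout, while AT5G61590 runs from 1.33 in KO1 alone to -0.84 in WT alone.

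Relatives of the 4 genes were looked up in lists of their families, of which few members had a named probe set of their own. In the DREB2 family 6 of 7 relatives of DREB2A were measured (DREB2B, DREB2C, DREB2D, DREB2F, DREB2G and DREB2H), in the group A bZIP family 2 of 8 relatives of ABF1 (EEL and bZIP15), in group IX of the ERF factors 2 of 10 relatives of AT5G61590 (AT5G07580 and ERF2), and in class I of the homeodomain-leucine zipper factors 0 of 16 relatives of HB-12. None of the 10 measured relatives passed the test in any of the 4 comparisons with WT by limma. Over all named probe sets 0.127% to 0.309% were called in these comparisons, so a lack of calls among 10 says little about the relatives.

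DREB2B, the closest partner of DREB2A in drought responses, had log2 signals of 1.77, 1.83 and 0.92 in the roots of KO1 and 1.33, 2.44 and 1.56 in those of KO3, against 1.35 and 1.40 in WT roots. Both KO lines overlapped WT, with log2 differences of 0.13 in KO1 and 0.40 in KO3 (standard error 0.33 each). The median log2 difference of the 6 relatives of DREB2A in roots was 0.08 in KO1 and 0.02 in KO3, beside a median of 0.00 over all named probe sets in both. Of the 6, 2 were above WT on every KO1 root array and 1 on every KO3 root array. The same held for 11.4% and 12.4% of named probe sets.

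Among the relatives of AT5G61590, AT5G07580 lay below WT in the roots of both KO lines, at 4.56, 4.58 and 3.86 in the roots of KO1 and 3.95, 3.56 and 4.45 in those of KO3, against 4.72 and 5.11 in WT roots. Its log2 differences were -0.58 in KO1 and -0.93 in KO3 (standard error 0.28 each, adjusted p = 0.619 and 0.251 from limma). Every root array lay below WT for 11.5% of named probe sets in KO1 and 11.8% in KO3. In shoots AT5G07580 differed by -0.25 and -0.24, where AT5G61590 was higher in the KO lines. ERF2, a factor of jasmonate and ethylene responses, was scattered in shoots, at 2.13, 3.24 and 1.52 in KO1 and 4.32, 4.40 and 2.14 in KO3, against 1.68, 3.52 and 1.74 in WT. EEL and bZIP15, the relatives of ABF1, differed from WT by at most 0.36 in either direction. EEL was above WT on every KO1 shoot array (0.35), as were 3.60% of named probe sets. In KO3 roots 1 of these relatives was above WT on every array and 1 below, as for 12.4% and 11.8% of named probe sets.

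Genes listed as targets of DREB2A and the ABF factors were read beside these factors, 13 of 22 being measured. Which factors act on the listed genes in these plants was not tested. In roots 4 of 13 were upregulated in KO1 (RD29A, COR47, ERD10 and HVA22D) and 3 of 13 in KO3 (RD29A, COR47 and ERD10), 0 of 13 were downregulated in either, and the rest did not pass. Of all named probe sets 0.0884% were called higher and 0.0387% lower in KO1 roots, and 0.121% higher and 0.0939% lower in KO3 roots. Of the called targets, COR47 was named by the platform's annotation. RD29A, ERD10 and HVA22D had a name only through the study's lists of genes that differed in the NBR1 overexpression line. The counts of called targets are therefore no test against these shares. The median log2 difference of the 13 genes was 0.68 in KO1 roots and 0.84 in KO3 roots, beside 0.00 over all named probe sets in both. These target genes were listed with earlier results of the same arrays known, and no test of the list as a whole was made.

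RD29A, the usual reporter of drought and ABA signalling, stood at 4.19, 4.69 and 4.43 in the roots of KO1 and 4.43, 4.16 and 4.25 in those of KO3, against 2.94 and 2.53 in WT roots. The log2 difference from WT was 1.70 for KO1 and 1.54 for KO3, each with a standard error of 0.19, and limma's adjusted p was 0.010 for KO1 and 0.017 for KO3. COR47 and ERD10, which encode dehydrins, differed by 1.42 and 1.38 in KO1 and by 1.21 and 1.32 in KO3, with adjusted p between 0.021 and 0.034. HVA22D, an ABA-induced gene of membrane trafficking, differed by 1.34 in KO1 (adjusted p = 0.049) and by 1.19 in KO3, where it did not pass. The calls rested on the spread shared by the lines and on single arrays. With KO1 and WT fitted alone 0 of the targets were called and with KO3 and WT alone 1. Without WT replicate 1, KO1 and KO3 had 0 each. Without KO1 replicate 1 they had 1 each, without KO1 replicate 2 KO1 had 1, without KO3 replicate 2 KO3 had 0, and without KO3 replicate 3 KO1 had 1 and KO3 had 0. The sign of every named value was kept in all of these fits.

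In shoots, where ABF1 and DREB2A overlapped between lines, 0 of the 13 targets were called in KO1 and 0 of 13 in KO3, where 0.309% and 0.144% of all named probe sets were called. Their median log2 difference was -0.62 in KO1 and 0.32 in KO3, beside -0.06 and 0.00 over all named probe sets. The median in KO1 changed sign without KO1 replicate 1, to 0.04 with 8 of 13 above 0, and with quantile normalisation over the organ, to 0.24 with 11 of 13 above 0, while that in KO3 was 0.16 without KO3 replicate 1 and 0.64 without KO3 replicate 3. KO1 replicate 1, the array that stood apart, had the lowest RD29A signal of the shoot arrays, 4.84 against 7.55 and 7.32 in the other KO1 arrays, 7.48 to 8.29 in KO3 and 7.29 to 7.49 in WT.

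**Figure D5:**
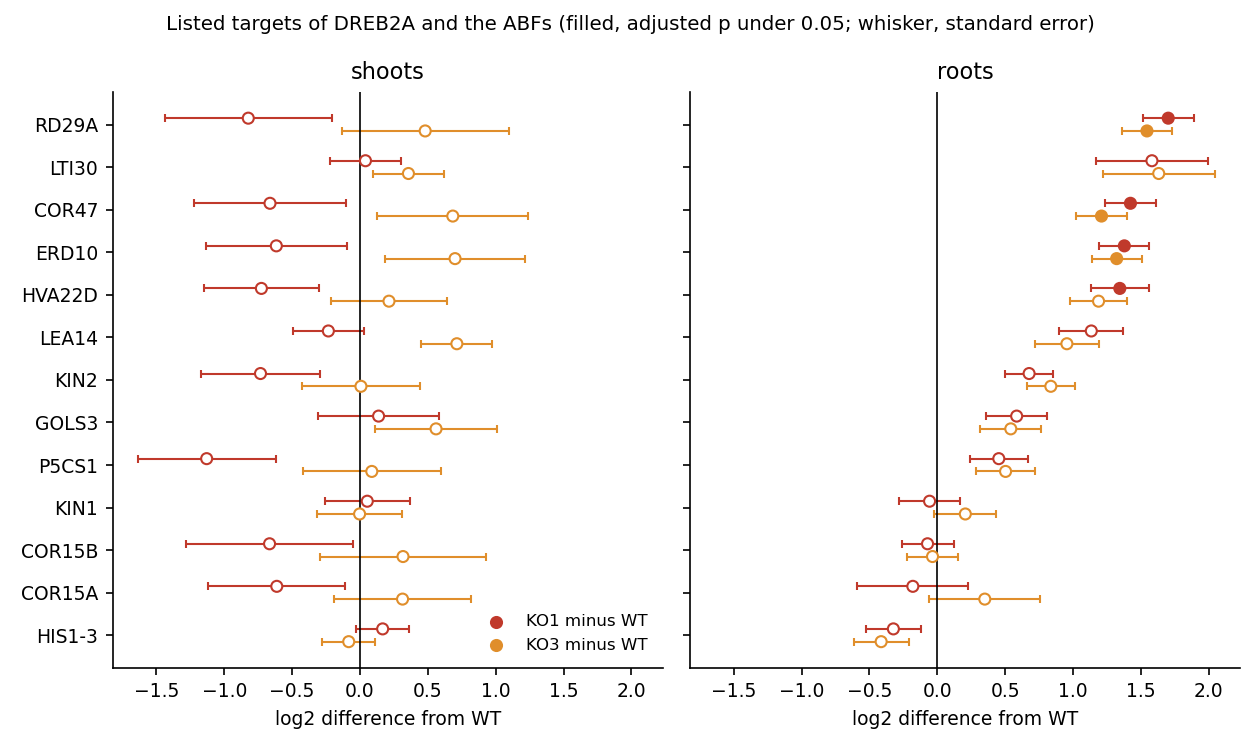
Log2 difference from WT (horizontal axis) of the 13 measured genes listed as targets of DREB2A and the ABF factors in KO1 and KO3, in shoots (left) and roots (right), with standard errors as whiskers and filled points for an adjusted p under 0.05. In roots RD29A, COR47 and ERD10 are filled in both lines at 1.21 to 1.70 and HVA22D in KO1 alone, and no point is filled in shoots.

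Few of the listed genes upstream of the 4 factors had a named probe set of their own, and the others may lie among the unnamed probe sets. None of the 14 listed ABA receptors and none of the 10 SnRK2 kinases had a probe set of their own name, nor had any of the 6 CBF factors, the cold-responsive kin of DREB2A. Of 9 clade A phosphatases of the ABA pathway, a group that HB-12 is known to activate, HAI2 was measured, and its log2 differences from WT were -0.25 in KO1 shoots, 0.07 in KO3 shoots and 0.03 in the roots of both lines (0 of 4 called). BPM3, an adaptor of the ubiquitin ligase that removes DREB2A, was the 1 of 16 listed regulators of DREB2A that was measured, with log2 differences of -0.49 in KO1 shoots, where every array was below WT (as for 12.2% of named probe sets), -0.07 in KO3 shoots, 0.24 in KO1 roots and 0.33 in KO3 roots (0 of 4 called). Of 20 other drought and ABA factors 6 were measured and none was called. With 0.127% to 0.309% of all named probe sets called in the comparisons with WT, a lack of calls among so few genes says little. This holds for HAI2 and BPM3 too. The widest difference among the 6 other factors was that of WRKY40 in KO3 shoots, 1.89 (adjusted p = 0.457 from limma), a transcript with an SD of 0.95 in KO3 shoots (n = 3) and a difference of -0.07 in KO1 shoots. Of the others, named here after their values were seen, AT1G22190 was below WT in every shoot array of both KO lines, by -1.05 in KO1 and -0.58 in KO3 (adjusted p = 0.192 and 0.998 from limma). MYC2 was below WT in every array of KO1 shoots (1.21 to 1.99, against 2.06 to 3.49 in WT, adjusted p = 0.511). Every array lay below WT for 12.2% of named probe sets in KO1 shoots and 6.32% in KO3 shoots. ABR1 differed by 1.41 in KO3 shoots, where its arrays overlapped WT, and by 1.28 in KO3 roots, where they were all higher, as for 12.4% of named probe sets.

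Of 18 listed genes of cuticular wax synthesis, the process that DEWAX restrains, ACLA2 and WSD1 were measured and neither was called in any comparison with WT, where 0.127% to 0.309% of all named probe sets were. ACLA2, a subunit of ATP-citrate lyase and a known target of DEWAX, had log2 signals of 1.76, 2.49 and 2.15 in KO1 shoots and 1.83, 1.50 and 1.91 in KO3 shoots, against 1.52, 1.40 and 1.77 in WT shoots. In roots it had 3.19, 3.38 and 3.50 in KO1 and 2.87, 3.53 and 3.94 in KO3, against 4.06 and 4.09 in WT. Every KO root array was thus below WT, as for 11.5% of named probe sets in KO1 and 11.8% in KO3. The log2 differences were 0.57 and 0.18 in KO1 and KO3 shoots and -0.72 and -0.63 in KO1 and KO3 roots, the same signs as those of AT5G61590.

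The probe sets most like each gene were looked up over the 17 arrays by Pearson's r after the mean of the organ had been subtracted, among 6090 single-gene probe sets above the array median in both organs. These values describe the arrays, which share lines, medians and the arrays that stand apart, and the genes were taken for their rank. HB-12 was most like AT3G52870 (r = 0.924), AT3G16940 (r = 0.917) and MYC4 (r = 0.913), a factor of jasmonate responses. DREB2A was most like SWEET16 (r = 0.891), a sugar transporter of the vacuole, AT5G44060 (r = 0.807) and the diacylglycerol kinase gene DGK2 (r = 0.798). AT5G61590 was most like AT4G33960 (r = 0.879), AT1G49500 (r = 0.789) and ACLA2 (r = 0.787). ABF1 was less like any probe set, with AT5G48640 (r = 0.740), AT2G39650 (r = 0.736) and AT1G60830 (r = 0.730) closest.

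Among themselves, ABF1 and DREB2A were the most alike of the 4 genes (r = 0.689 over the 17 arrays), and AT5G61590 and HB-12 the most opposed (r = -0.543). Without KO1 shoots replicate 1 and WT roots replicate 1, over 15 arrays, these values were 0.565 and -0.620. The differences from WT that had a part in choosing the genes remain in these correlations, so nothing is read from them.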

How the data were processed

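Total RNA (100 ng per sample) was labelled for Affymetrix Arabidopsis Gene 1.1 ST arrays. Per the labels, the authors made the deposited log2 signals with RMA in Transcriptome Analysis Console on TAIR10, whose versions and background settings are not given in the sources used here. The deposited values have 2 decimals, and whether the organs were normalised apart is not stated. No columns of the authors' own comparisons were used.

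The members and lists were chosen with earlier results of these data known. The platform's annotation named 17504 probe sets. A further 603 were named through the study's supplementary lists of genes that differed between the NBR1 overexpression line and WT. Of all named probe sets, 17349 carried 1 gene. RefSeq names (TAIR10.1) were used without coordinates. Within an organ, the 3 lines were fitted by limma 3.58.1 in R 4.3.3 (lmFit, eBayes), with Benjamini-Hochberg adjustment over all 18107 named probe sets and a threshold of 0.05. Shoots and roots were compared after quantile normalisation of all 17 arrays. The fits were tested on simulated data. Of simulated 2-fold changes, 52% were recovered in KO1 shoots, 50% in KO3 shoots, 66% in KO1 roots and 70% in KO3 roots. A gene that was not called may therefore still differ by 2-fold. Named genes were the 4 members, NBR1, measured relatives, list members past the threshold or, where none passed, the widest difference of a list, and the 3 probe sets most like each member. Alternatives were other normalisations, omission of dim probe sets (mean under percentile 30), use of all 28583 probe sets, trend and robust moderation, array weights, the 2 groups alone, a replicate block, single lines and each array left out in turn. Replicate numbers were taken to pair KO1 with KO3 in shoots, where all 3 same-numbered pairs had residual correlations of 0.14 to 0.28 (from the data, since the labels give no shared batch), and no other lines. KO1 and KO3 alone, their block in shoots, the joint omission of 2 arrays and the alternatives for the targets were chosen after seeing the data. Arrays number 2 or 3 per group, which limits the precision. Tables and figures used Python 3.11.15, NumPy 2.4.6, pandas 2.3.3 and matplotlib 3.10.9. WT roots replicate 2 was not analysed here.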

Additional observations from a re-analysis of the deposited data

Results flagged for a closer look

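AT5G61590 differed from WT in opposite directions in the organs of KO1, with every KO1 array above WT in shoots (2.99, 3.85 and 3.12 against 1.78, 2.24 and 2.50) and every KO1 array below WT in roots (3.52, 3.27 and 3.34 against 4.30 and 3.84). The log2 difference from WT in shoots minus that in roots was 1.84 in KO1 and 1.60 in KO3, where 1 root array overlapped WT. Both contrasts had a part in choosing the gene, and the difference between the organs was not tested.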

How the results depend on the processing

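The count of the 4 genes called in KO1 against WT in shoots was 2 with quantile normalisation over the organ, 1 with trend and robust moderation, 1 with array weights and between 0 and 2 with each array left out in turn. The count between organs ranged over 2 to 4, and the calls over all named probe sets there over 7214 to 17757. The count of targets called in roots was 0 in KO1 and 1 in KO3 with the 2 groups alone, and ranged between 0 and 4 in both lines with each array left out. Shoots minus roots of AT5G61590 was -0.75 with the values as deposited and -0.84 with WT arrays alone, and that of ABF1 was 0.32 with WT arrays alone. KO1 minus KO3 had an adjusted p over the threshold in every fit and changed sign in some. With each array left out, it ranged in shoots over -0.16 to 0.28 for ABF1, -0.033 to 0.15 for DREB2A and -0.14 to 0.29 for AT5G61590 (all 3 below 0 without KO1 replicate 2), and in roots over -0.17 to 0.47 for ABF1, -0.085 to 0.34 for DREB2A (both below 0 without KO3 replicate 1), -0.18 to 0.14 for HB-12 and -0.46 to 0.16 for AT5G61590. With array weights it was -0.014 for ABF1 in roots. Calls over all named probe sets, 56, 26, 23 and 39 in KO1 shoots, KO3 shoots, KO1 roots and KO3 roots, ranged over 16 to 180, 2 to 158, 1 to 57 and 0 to 108, and KO1 against KO3 in roots had 1 call with all probe sets. In these cases the cause was not tested. Where an array of WT roots was left out, the lone WT array was taken to vary like the other groups. DREB2A in shoots has no value without dim probe sets, since it was below that limit.

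Same-numbered arrays of different lines had residual correlations of -0.14 to 0.28 in shoots and -0.05 to 0.21 in roots, so the numbers were not taken to pair the lines as a whole. The 3 KO1 and KO3 pairs in shoots were all positive, and the block in these lines alone called 0 of the 4 genes. In roots the same-numbered pairs with WT were positive too, at 0.21 and 0.14 for KO1 and 0.11 and 0.10 for KO3. These lines were not blocked alone. With the replicate block over all lines, 4 of 13 targets were called in KO1 roots and 4 of 13 in KO3 roots. With the replicate block 0 of the 4 genes were called in each comparison within an organ, as without it, 3 of 4 between organs, and the number of probe sets called in KO1 shoots was 31 in place of 56.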
